A study of Mus musculus with 96 samples.

Results

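The Cyp2a and Cyp2d subfamilies are 2 groups of neighbouring cytochrome P450 genes that are strongly expressed in mouse liver. The genes were chosen by name: Cyp2a4, Cyp2a5, Cyp2a12 and Cyp2a22 of the Cyp2a cluster, and Cyp2d9, Cyp2d10, Cyp2d13, Cyp2d22, Cyp2d26 and Cyp2d40 of the Cyp2d cluster. Of these 10 symbols, 9 were matched to Ensembl genes among the 38924 genes of the tables, and Cyp2d13 is not analysed here. The 9 genes held 0.509% of all expected counts.

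Liver RNA came from 48 male F1 mice of the 2 reciprocal crosses between the inbred strains NOD/ShiLtJ, which is prone to autoimmune diabetes, and PWK/PhJ, which is derived from wild mice of another subspecies. All mice were thus heterozygous at every autosomal locus where these strains differ, and none of the groups was an inbred parent. As males they carried a single X chromosome, which comes from the dam. The crosses are written NODxPWK and PWKxNOD, with the strain written first taken here as the dam. Within each cross, mice ate a diet with 0.009 g/kg cholecalciferol (vitamin D3, normal diet) or 0.050 g/kg (high diet) and were killed at a younger or an older age, which gave 8 groups of 6 mice, each a separate animal. The age label of the younger mice is 8 whereas the protocol gives 15 weeks, and that of the older mice is 24 or 25 whereas the protocol gives 24 weeks, so ages are called younger and older. The 7 mice labelled 25 were all older mice on the normal diet, 5 of NODxPWK and 2 of PWKxNOD. Expected counts, the estimated number of reads per gene and allele, summed to 2.03 to 7.48 M per mouse (median 5.27 M). Summed markers of hepatocytes lay between 104339 and 169357 CPM, counts scaled to a common library total, in every mouse, and none of the 14 found was at 0. Markers of the exocrine pancreas had a median sum of 34.1 CPM and reached 2378 CPM in 1 mouse.

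Cytochromes P450 are haem enzymes of the endoplasmic reticulum that insert oxygen into lipophilic substrates, with electrons passed on by the reductase Por and by cytochrome b5. Cyp2a enzymes act on coumarin, nicotine, steroids and bile acids, and Cyp2d enzymes on many basic drugs and on steroids. Both subfamilies grew by gene duplication in rodents, several members differ between the sexes in mouse liver, and Cyp2a4 and Cyp2a5 are known targets of Dbp, a PAR bZIP factor that, with Tef and Hlf, is an output of the circadian clock.

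The genes are so alike that short reads cannot always be told apart between them, so the sequences are shown first. Coordinates are of GRCm38. The coding sequences of Cyp2a4 (chr7:26307169-26315088, plus strand) and Cyp2a5 (chr7:26835305-26843548, plus strand) differed at 23 of 1482 bases (98.4% identity), and their longest identical run was 216 bases. The stretch below, coding bases 550 to 669 in exons 4 and 5, holds 6 of the differing bases, in capitals. In the genome it spans chr7:26308984-26310720 for Cyp2a4 and chr7:26837147-26838882 for Cyp2a5, intron included.
Cyp2a4: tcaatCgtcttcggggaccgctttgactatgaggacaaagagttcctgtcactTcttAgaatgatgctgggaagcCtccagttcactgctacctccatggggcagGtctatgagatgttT
Cyp2a5: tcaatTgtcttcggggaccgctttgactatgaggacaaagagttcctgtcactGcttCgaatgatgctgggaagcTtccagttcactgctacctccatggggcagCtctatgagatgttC

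In the Cyp2d cluster, Cyp2d9 (chr15:82433437-82456845, plus strand) and Cyp2d10 (chr15:82402846-82407195, minus strand) had 92.5% identical coding bases. Their most different stretch of 120 bases, coding bases 1381 to 1500 in the last of 9 exons, holds 22 differing bases in capitals (chr15:82456632-82456751 and chr15:82402921-82403040).
Cyp2d9: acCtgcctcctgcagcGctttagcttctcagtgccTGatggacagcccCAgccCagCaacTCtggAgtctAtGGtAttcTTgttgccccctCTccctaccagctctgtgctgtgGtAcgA
Cyp2d10: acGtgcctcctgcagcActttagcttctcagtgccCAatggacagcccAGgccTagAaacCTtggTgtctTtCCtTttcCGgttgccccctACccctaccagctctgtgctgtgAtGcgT
Of all stretches of 68 bases, the read length, in the annotated transcripts of a gene, 25.9% for Cyp2a4, 25.6% for Cyp2a5 and 25.8% for Cyp2d10 also occurred in transcripts of other genes. The share was 14.8% for Cyp2d9, 11.8% for Cyp2a12 (chr7:27029081-27037375, plus strand), 11.9% for Cyp2a22 (chr7:26931631-26939384, minus strand), 7.44% for Cyp2d40 (chr15:82759833-82764183, minus strand), 4.48% for Cyp2d26 (chr15:82790101-82794294, minus strand) and 2.05% for Cyp2d22 (chr15:82370527-82380260, minus strand). These shares come from reference (C57BL/6J) transcripts, not from the NOD and PWK sequences. None of the 9 genes had a whole-number total in all 48 mice (within 0.001), against 54.1% of the 9706 genes with a mean total of at least 20, so part of the value of each member was shared out between genes by the authors' counting.

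The sequence just upstream of the gene is likewise nearly the same in Cyp2a4 and Cyp2a5, and is shown because these 2 genes differed in their pattern over the groups. Bases 250 to 41 before the RefSeq start (GRCm38.p6, plus strand) lie at chr7:26306942-26307151 for Cyp2a4 and chr7:26835089-26835298 for Cyp2a5, with bases that differ or have no aligned partner in capitals.
Cyp2a4 upstream: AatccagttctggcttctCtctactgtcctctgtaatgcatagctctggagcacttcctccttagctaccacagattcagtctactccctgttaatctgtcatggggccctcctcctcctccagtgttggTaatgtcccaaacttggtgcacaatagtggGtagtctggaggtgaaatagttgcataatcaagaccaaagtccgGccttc
Cyp2a5 upstream: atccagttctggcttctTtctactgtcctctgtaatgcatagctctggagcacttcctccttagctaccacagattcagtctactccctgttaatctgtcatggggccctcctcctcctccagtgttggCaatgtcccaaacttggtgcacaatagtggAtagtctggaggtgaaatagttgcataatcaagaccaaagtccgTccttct
Over the 249 aligned bases of the 250 bases before the RefSeq start, 4 differed. Both hold a partial D-box, a part of the site bound by PAR bZIP factors (TTATG or TTACG on either strand, here CATAA), at bases -67 to -63 in Cyp2a4 and -68 to -64 in Cyp2a5. Such a match occurred in 31.1% of the 32851 RefSeq upstream windows of 250 bases. A TATA box (TATAAA on either strand) occurred in both, and in 12.4% of all windows.

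Levels between genes were compared per kilobase of transcript. Cyp2d9, a testosterone hydroxylase with higher expression in males, stood highest at a mean of 1291 CPM per kb. Cyp2d10 (532 ± 66.1 CPM per kb, SD over mice) and Cyp2d26 (516 ± 69.1 CPM per kb) came next. Their difference within a mouse was not tested. Cyp2a12, a bile acid hydroxylase (189 ± 27.5 CPM per kb, SD), and Cyp2d40 (175 ± 27.1 CPM per kb) followed, likewise not tested within a mouse. Then came Cyp2a5, the coumarin and nicotine hydroxylase (112 CPM per kb), Cyp2a4, a testosterone hydroxylase (97.4 CPM per kb), and Cyp2d22, often named as the closest mouse counterpart of human CYP2D6 (72.3 CPM per kb). The SDs of Cyp2a4 and Cyp2a5 (57.0 and 55.5 CPM per kb) exceeded the gaps between these 3 genes, and their order turned with age. In younger mice Cyp2a4 averaged 137, Cyp2a5 107 and Cyp2d22 71.2 CPM per kb, and in older mice 57.6, 118 and 73.5 CPM per kb. Cyp2a22 was barely detected (1.40 CPM per kb). Cyp2a4 and Cyp2a5 varied most among the well-expressed members, with coefficients of variation over the 48 mice of 58.5% and 49.4%, against 11.5% to 15.5% for Cyp2a12 and the 5 Cyp2d genes.

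The first comparison asked which members differ between older and younger mice. Cyp2a4 fell to 0.417 of the younger level in older mice, and no other member passed the test. Its level in CPM over the 6 mice of each group, as lowest, median and highest, was 89.7, 199 and 294 in younger NODxPWK mice on the normal diet and 70.9, 90.7 and 132 in the older ones. On the high diet NODxPWK mice had 97.9, 157 and 350 when younger and 65.1, 72.8 and 155 when older. The ranges of younger and older mice thus overlapped in this cross, with the medians of older mice at under 100 CPM. In PWKxNOD the levels were 195, 241 and 329 CPM (younger, normal diet), 40.98, 151 and 227 (older, normal diet), 282, 322 and 356 (younger, high diet) and 35.3, 58.8 and 151 (older, high diet). The last pair did not overlap, and all 24 older mice lay below the median of the 24 younger mice. The 24 older mice had a mean of 100 ± 56.5 CPM (SD) and the 24 younger mice 239 ± 82.8 CPM (SD), and the fall was -1.26 ± 0.17 (log2, SE; edgeR's quasi-likelihood test, Benjamini-Hochberg adjusted p = 5.92e-07, rank 81 of 11979 genes by p). Of all genes tested, 12% passed this threshold for age, 6.42% higher and 5.59% lower, against 1 of 9 members, lower. The interaction of age with cross did not pass (-0.42 ± 0.33, adjusted p = 0.801 by the same edgeR test).

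**Figure D1:**
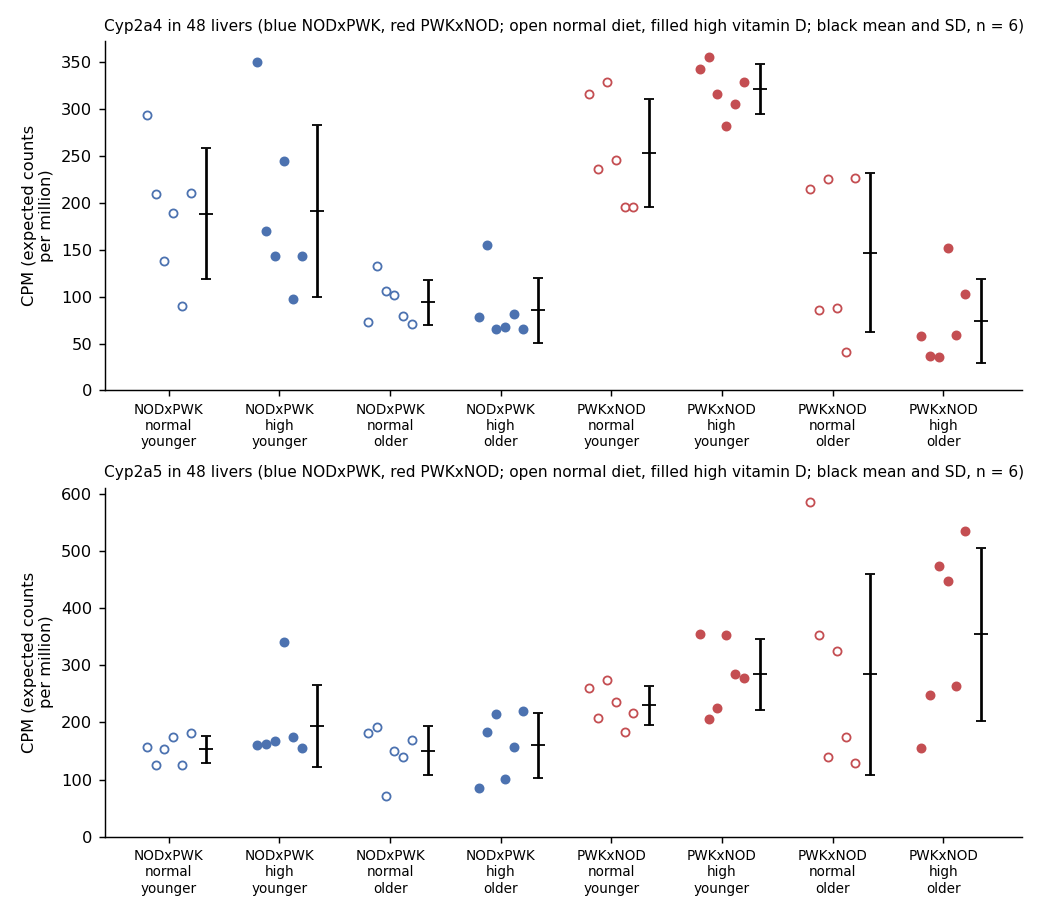
Levels of Cyp2a4 (top) and Cyp2a5 (bottom) in CPM in each of 48 livers, by group (x axis), with 1 point per mouse and the mean and SD of 6 mice beside them. Cyp2a4 lies lower in older mice of each cross and diet, and Cyp2a5 lies higher in PWKxNOD (red) than in NODxPWK (blue) mice.

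Cyp2a5, the near-identical neighbour, had an age difference of 0.10 ± 0.15 (95% interval -0.20 to 0.41; adjusted p = 0.757 by edgeR's quasi-likelihood test). The other members lay between -0.09 ± 0.04 for Cyp2d9 (adjusted p = 0.169) and 0.19 ± 0.16 for Cyp2a22 (adjusted p = 0.528, edgeR). Cyp2d26 (0.11 ± 0.05, adjusted p = 0.129) and Cyp2a12 (0.12 ± 0.06, adjusted p = 0.208) had unadjusted p under 0.05 in the same edgeR fit, as did Cyp2d9. With 95% intervals of at most 0.24 from zero for Cyp2a12 and the 5 Cyp2d genes, age differences larger than that were outside the intervals of these 6 members. The median over the 9 members was 0.05, and over all genes 0.00.

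The log2 ratio of Cyp2a4 to Cyp2a5 counts within a mouse compares the 2 genes directly. It was 0.12 ± 0.46 in younger and -1.22 ± 1.11 in older mice (SD, 24 mice each). Single mice overlapped, with -0.84 to 1.13 in younger and -3.75 to 0.82 in older mice. The mean difference was -1.34 ± 0.22 (SE; permutation test within cross and diet, two-sided, adjusted p = 3e-05 over 6 ratio tests). Before adjustment its p was the smallest that 100000 resamples can give. When Cyp2a4 and Cyp2a5 were summed to 1 feature, the sum fell by 0.43 on the log2 scale with age (adjusted p = 0.0154, edgeR). The part of reads moved between the 2 genes by the counting cannot be read from the files, and its effect on the ratio was not tested. In bulk liver, fewer cells of a type and less RNA per cell cannot be told apart. Of 15 periportal hepatocyte markers, 8 were lower and 1 was higher in older mice, where 5.59% of all genes were lower and 6.42% higher. Of 14 pericentral markers found, 5 were higher and none lower. The pericentral sums were 8454 to 13764 CPM in older and 6926 to 11069 CPM in younger mice, with no marker at 0. The part of both marker sets in the fall of Cyp2a4 was not tested.

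The Cyp2d9 share within its cluster also shifted with age, by a small amount. The log2 ratio of Cyp2d9 to the summed Cyp2d10, Cyp2d22, Cyp2d26 and Cyp2d40 counts was lower by 0.15 in older mice (-0.15 ± 0.02 SE, permutation test, adjusted p = 3e-05 over the same 6 tests). Its differences by diet and cross were 0.02 and -0.02 (adjusted p = 0.433 for both, permutation test).

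Other genes of the same biology moved in both directions with age. Over all genes tested, 6.42% were higher and 5.59% lower in older mice. Among 3 further Cyp2d genes, Cyp2d12 (0.61 ± 0.20, adjusted p = 0.0343, edgeR) and Cyp2d11 (0.19 ± 0.06, adjusted p = 0.0399) were higher in older mice. Cyp2d12 was barely detected, with a mean of 7.75 counts per mouse. Of 19 genes of other Cyp2 subfamilies 6 were higher and 7 lower, among them Cyp2c54 (0.75) and Cyp2c50 (0.61) higher and Cyp2c40 (-0.57) and Cyp2c68 (-0.53) lower, of the Cyp2c oxygenases of drugs and fatty acids. Of the 14 redox partners and haem genes 5 were higher and 3 lower. Alad, an enzyme of haem synthesis, rose by 0.33 ± 0.06 and the haem-degrading Hmox1 fell by 0.46 on the log2 scale (edgeR, adjusted p = 7.51e-05 and 0.00154). Of 27 regulators, Dbp (-1.30) and Tef (-0.41) were lower and their repressive counterpart Nfil3 (0.54) and the dioxin receptor Ahr (0.35) were higher. Cyp2a4 is higher in female than in male mouse liver, and of 9 other female-biased genes tested 4 were lower in older mice, among them Sult2a1 (-2.76), Cyp17a1 (-1.53) and Fmo2 (-0.90), while 1 was higher. Of 23 male-biased genes, 8 were higher and 1 lower.

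The cross comparison asked whether members differ between the reciprocal crosses, which carry the same autosomal alleles. Cyp2a5 was 1.79 times higher in PWKxNOD than in NODxPWK mice. Its level in NODxPWK, as lowest, median and highest, was 125, 156 and 182 CPM (younger, normal diet), 155, 165 and 340 (younger, high diet), 71.3, 160 and 193 (older, normal diet) and 84.8, 170 and 219 (older, high diet). In PWKxNOD it was 183, 227 and 275 CPM (younger, normal diet), 207, 281 and 356 (younger, high diet), 129, 250 and 585 (older, normal diet) and 156, 356 and 535 (older, high diet). The ranges of the crosses overlapped in 3 of 4 matched pairs of groups, and those of younger mice on the normal diet did not. Over 24 mice each, the means were 164 ± 51.8 and 288 ± 122 CPM (SD), and 21 of 24 PWKxNOD mice lay above the NODxPWK median. The rise was 0.84 ± 0.16 (log2, SE; edgeR's quasi-likelihood test, adjusted p = 0.000139). Over all genes 10.7% passed the threshold for cross, 5.36% higher and 5.33% lower in PWKxNOD, against 1 of 9 members, higher.

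Cyp2a4 differed by 0.45 ± 0.17 (adjusted p = 0.0789, edgeR) and Cyp2a12 by 0.15 ± 0.06 (adjusted p = 0.0976), both higher in PWKxNOD and neither past the threshold. The means of Cyp2a4 were 199 ± 111 CPM in PWKxNOD and 140 ± 76.9 CPM in NODxPWK (SD). Cyp2d9, Cyp2d10, Cyp2d22 and Cyp2d26 differed by -0.04 to 0.00, with all their 95% intervals within -0.16 to 0.09, and Cyp2d40 by 0.12 ± 0.06 (adjusted p = 0.251, edgeR).

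**Figure D2:**
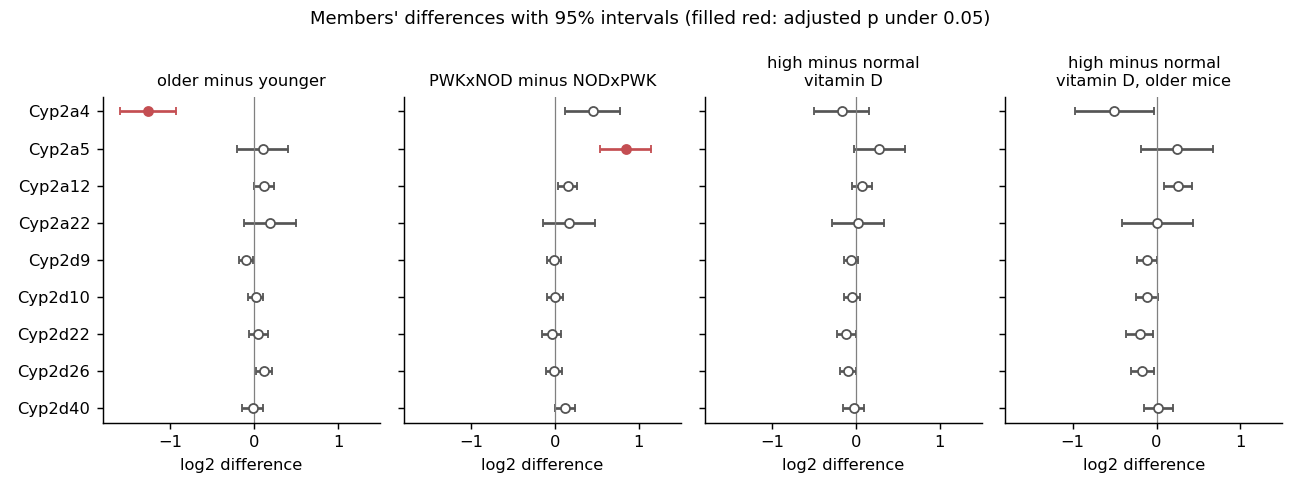
Differences of the 9 members on the log2 scale (x axis) with 95% intervals for age, cross, diet, and diet in older mice, from edgeR, with filled red points where the adjusted p is under 0.05. Cyp2a4 passes for age and Cyp2a5 for cross, and the Cyp2d genes lie close to 0 in each panel.

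Clock genes moved with the crosses, with age and, in part, with diet in older mice. All 6 genes that count positively in a clock score (Dbp, Tef, Per2, Per3, Ciart and Nr1d2) were higher and all 4 that count negatively (Arntl, Npas2, Clock and Nfil3) were lower in PWKxNOD mice. In older mice all 6 of the first set were lower (median -0.70 log2), and 1 of the second set was higher. On the high diet, older mice had 2 of the first set higher and 2 of the second lower, where 3.71% of all genes passed. The score, the mean log2 CPM of the first set minus that of the second, averaged -1.45 to 1.19 in the 4 NODxPWK groups and 1.67 to 3.36 in the 4 PWKxNOD groups. In NODxPWK it was 1.19 and 1.14 in younger mice on the normal and high diet, and -1.45 and -0.33 in older ones. In PWKxNOD the same order gave 2.44 and 3.36, then 1.67 and 3.29. Dbp was 1.73 ± 0.23 and Tef 0.82 ± 0.10 higher in PWKxNOD (log2, SE; edgeR, adjusted p = 4.23e-07 and 1.39e-07). With the score as a covariate in the edgeR fit, the cross difference of Cyp2a5 was 0.03 ± 0.25 (adjusted p = 1.00), and 62 rather than 1281 genes passed for cross. The group means of the score did not overlap between the crosses, so score and cross cannot be told apart in this fit. The age difference of Cyp2a4 was -1.31 ± 0.22 in the same edgeR fit (adjusted p = 7.08e-05). The sources used here do not give the time of day at which each mouse was killed, and the part of that time in the cross and age differences was not tested.

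Across the 48 mice, after subtraction of group means, Cyp2a5 correlated with the clock score (Pearson's r = 0.53, adjusted p = 0.00186; Spearman's rho = 0.51, adjusted p = 0.00621; permutation within groups, 54 relations tested). Without the 2 mice farthest from the median score r was 0.50. For Cyp2a12 the values were r = 0.35 and rho = 0.39 (permutation, adjusted p = 0.045 and 0.0375), and r = 0.35 without the 2 farthest mice. Cyp2a4 had r = -0.07 (rho = -0.11, permutation, adjusted p = 0.833 and 0.721), and -0.10 without the 2 farthest mice.

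**Figure D3:**
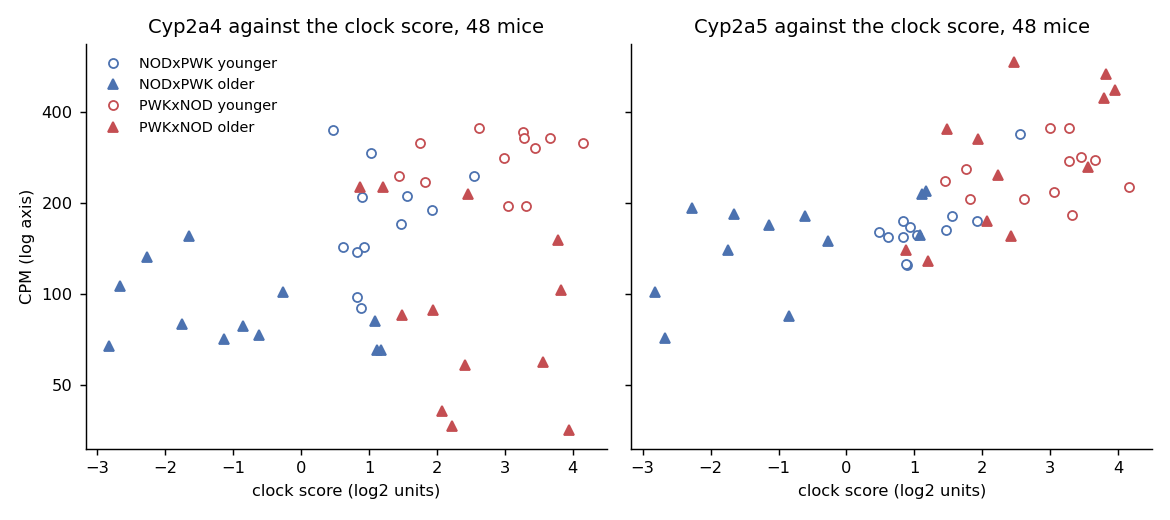
Cyp2a4 (left) and Cyp2a5 (right) in CPM on a log axis against the clock score in log2 units, with 1 point per mouse, blue for NODxPWK, red for PWKxNOD, circles for younger and triangles for older mice. Cyp2a5 rises with the score, while Cyp2a4 lies lower in older than in younger mice, with overlap between the ages.

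For the other lists, the shares over all genes tested were 5.36% higher and 5.33% lower in PWKxNOD. The redox partners and haem genes had 2 of 14 members higher in PWKxNOD. They were Por, the P450 reductase (1.25 ± 0.16, adjusted p = 1.15e-07, edgeR), and Alas1, which sets the rate of haem synthesis (1.58 ± 0.29, adjusted p = 0.000141). Cyb5b was lower (-0.18). Of 27 regulators 5 were higher and 3 lower, with the fatty acid receptor Ppara at 0.30 ± 0.06 (adjusted p = 0.000142, edgeR), and of 3 tested neighbours on chromosome 7 Cyp2b9 was lower (-2.12 ± 0.33, adjusted p = 6.76e-06). Of 9 female-biased genes tested, Cyp2b9 among them, 3 were higher and 1 lower in PWKxNOD (median 0.58), and of 23 male-biased genes 5 were higher and 1 lower. Of 14 pericentral markers 4 were higher and none lower in PWKxNOD, of 15 periportal markers 2 were higher and none lower, and of 14 general hepatocyte markers 3 were lower and none higher. The part of these markers in the rise of Cyp2a5 was not tested. Of 18 pancreas markers tested, 9 were higher in PWKxNOD mice. Without the 3 mice with pancreas sums above 10 times the median the cross difference of Cyp2a5 was 0.82.

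The diet comparison asked whether vitamin D intake moves these genes. No member passed the test in either direction by edgeR or DESeq2, where 0.342% of all genes did by edgeR. The differences ran from -0.17 ± 0.17 for Cyp2a4 (adjusted p = 0.803) to 0.28 ± 0.15 for Cyp2a5 (adjusted p = 0.533, edgeR). No member had an unadjusted p under 0.05, against 1323 of 11979 genes by edgeR. In the older mice, where 3.71% of all genes passed, again no member did by either tool. Of the 9 members, 4 had an unadjusted p under 0.05 by edgeR, as did 2006 of 11979 genes. Cyp2a12 had the smallest p: in older NODxPWK mice its lowest, median and highest levels were 235, 281 and 318 CPM on the normal and 305, 344 and 375 CPM on the high diet. In older PWKxNOD mice they were 220, 358 and 397 CPM and 326, 357 and 419 CPM. The medians were thus apart in 1 cross only, and the difference over both was 0.26 ± 0.08 (adjusted p = 0.0748, edgeR). The interaction of diet with age for Cyp2a12 was 0.37 ± 0.12 (adjusted p = 0.137, edgeR, where 0.618% of genes passed). Cyp2a4 (-0.51 ± 0.24), Cyp2d22 (-0.20 ± 0.08) and Cyp2d26 (-0.17 ± 0.07) in older mice had adjusted p of 0.276, 0.187 and 0.173 in the same edgeR fit. In younger mice 0% of genes passed edgeR's threshold. An unadjusted p under 0.05 was found for 573 of 11979 genes, about the share that chance gives, and none was a member. DESeq2 called 10 genes in younger mice, no member among them. The lowest adjusted p of a member there was 0.985 by edgeR. The interactions of diet with cross and of age with cross had 0 of 9 members past the threshold by edgeR and by DESeq2, where 0.125% and 0.0501% of all genes passed by edgeR. At an unadjusted p under 0.05 there were 0 members, against 1669 and 1066 of 11979 genes by edgeR.

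The allele comparison asked how the PWK and NOD copies of each gene differ within the same mice. The PWK share, the PWK expected count over the sum of both, averaged over 48 mice, was 99.4% ± 1.12 (SD) for Cyp2a4, 93.3% ± 3.25 for Cyp2a5 and 79.0% ± 3.37 for Cyp2a12. In the Cyp2d cluster it was 68.8% ± 4.86 for Cyp2d40, 53.3% ± 2.59 for Cyp2d9, 46.5% ± 3.02 for Cyp2d26, 41.2% ± 2.33 for Cyp2d10 and 39.4% ± 3.40 for Cyp2d22. All counts of Cyp2a4 went to PWK in 28 of 48 mice, and the lowest share in any mouse was 94.9%. The shares of Cyp2a5 ran from 84.6% to 100%, and those of Cyp2a12 from 73.3% to 87.9%. Cyp2d10 and Cyp2d22 lay below 50% in all 48 mice and Cyp2d26 in 41. Cyp2a22 had a mean share of 53.1% ± 30.6 from 12.7 counts per mouse, too few for the test.

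**Figure D4:**
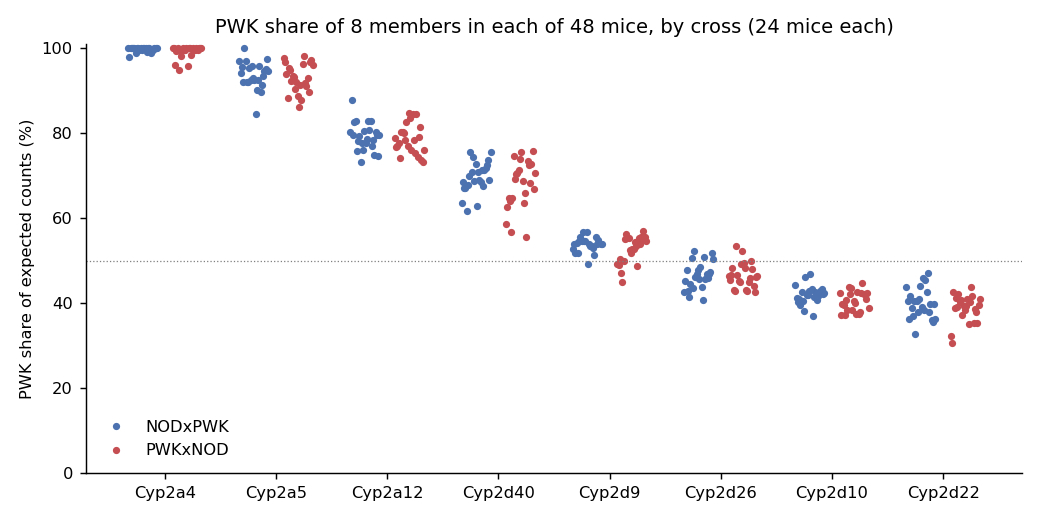
PWK share of the expected counts in percent (y axis) for 8 members (x axis) in each of 48 mice, blue for NODxPWK and red for PWKxNOD. Shares fall from about 99.4% for Cyp2a4 to 39.4% for Cyp2d22, and the clouds of the crosses lie over each other.

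All 8 members tested had a PWK to NOD difference past the threshold, 5 higher and 3 lower for PWK, where 43.6% of 9362 genes did. On the log2 scale (PWK over NOD, SE) it was 7.65 ± 0.21 for Cyp2a4, 3.91 ± 0.12 for Cyp2a5, 1.92 ± 0.04 for Cyp2a12 and 1.15 ± 0.03 for Cyp2d40. These were ranks 60, 176, 392 and 740 of all genes by size, and 9.41% of genes had an absolute value above 1. The fitted value of Cyp2a4 ran from 7.52 to 8.66 over the alternatives that kept the gene as a row of its own, and that of Cyp2a4 and Cyp2a5 summed was 4.70. Cyp2d9 had 0.19 ± 0.01, Cyp2d26 -0.20 ± 0.02, Cyp2d10 -0.51 ± 0.02 and Cyp2d22 -0.62 ± 0.03, near the median absolute value of 0.21 over all genes for the first pair. The neighbour Cyp2d11, 94.7% identical to Cyp2d10 in its coding bases, had a PWK share of 1.01% ± 1.02 (SD). When Cyp2d9, Cyp2d10, Cyp2d11, Cyp2d12 and Cyp2d34 were summed to 1 feature, the difference was -0.044 (adjusted p = 0.00287, edgeR), opposite in sign to Cyp2d9 alone. NOD received more counts than PWK over all genes, with a median log2 ratio of -0.14 over the mice. With each allele scaled to its own total, Cyp2d26 was at -0.041 (adjusted p = 0.158, edgeR) and the other 7 members kept sign and threshold.

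For the parent of origin, which compares the maternal with the paternal allele, 0 of 8 members passed by edgeR and by limma, where 0.267% of all genes passed by edgeR. Cyp2d9 (-0.03 ± 0.01 log2 maternal over paternal, adjusted p = 0.667, edgeR) and Cyp2d10 (-0.04 ± 0.02, adjusted p = 0.806) had unadjusted p under 0.05. For diet 0 of 8 allele ratios passed by either tool, and 0 had an unadjusted p under 0.05, where 0.0214% of all genes passed.

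The allele balance of 2 Cyp2d genes changed with age. The PWK share of Cyp2d9, as lowest, median and highest of 6 mice, was 53.9%, 54.1% and 55.7% in younger and 49.2%, 53.2% and 53.9% in older NODxPWK mice on the normal diet. On the high diet it was 54.5%, 55.1% and 56.7% against 51.7%, 53.3% and 54.6%. In PWKxNOD it was 53.8%, 55.1% and 57.1% against 48.7%, 53.1% and 55.4% on the normal diet, and 51.7%, 55.2% and 56.3% against 45.03%, 49% and 50.4% on the high diet. Only the last pair did not overlap. The share was below 50% in 7 of 24 older and in none of 24 younger mice, and 23 of 24 older mice lay below the younger median.

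Cyp2d40 had a PWK share of 71.8% ± 2.47 in younger and 65.8% ± 4.85 in older mice (SD, 24 mice each). Its group medians were 71.0% to 72.2% in the 4 younger and 63.3% to 68.7% in the 4 older groups, and the ranges did not overlap in 2 of 4 matched pairs. Of 24 older mice 22 lay below the younger median. The age difference in the log2 PWK to NOD ratio was -0.18 ± 0.03 for Cyp2d9 (adjusted p = 1.48e-05, edgeR, rank 12 of 9362) and -0.40 ± 0.07 for Cyp2d40 (adjusted p = 0.000508, edgeR, rank 21). These 2 of 8 members tested, both lower, compare with 0.705% of all genes, 0.363% higher and 0.342% lower. Cyp2d26 had -0.14 ± 0.05 (adjusted p = 0.329, edgeR), and the other 5 members had adjusted p of at least 0.833.

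**Figure D5:**
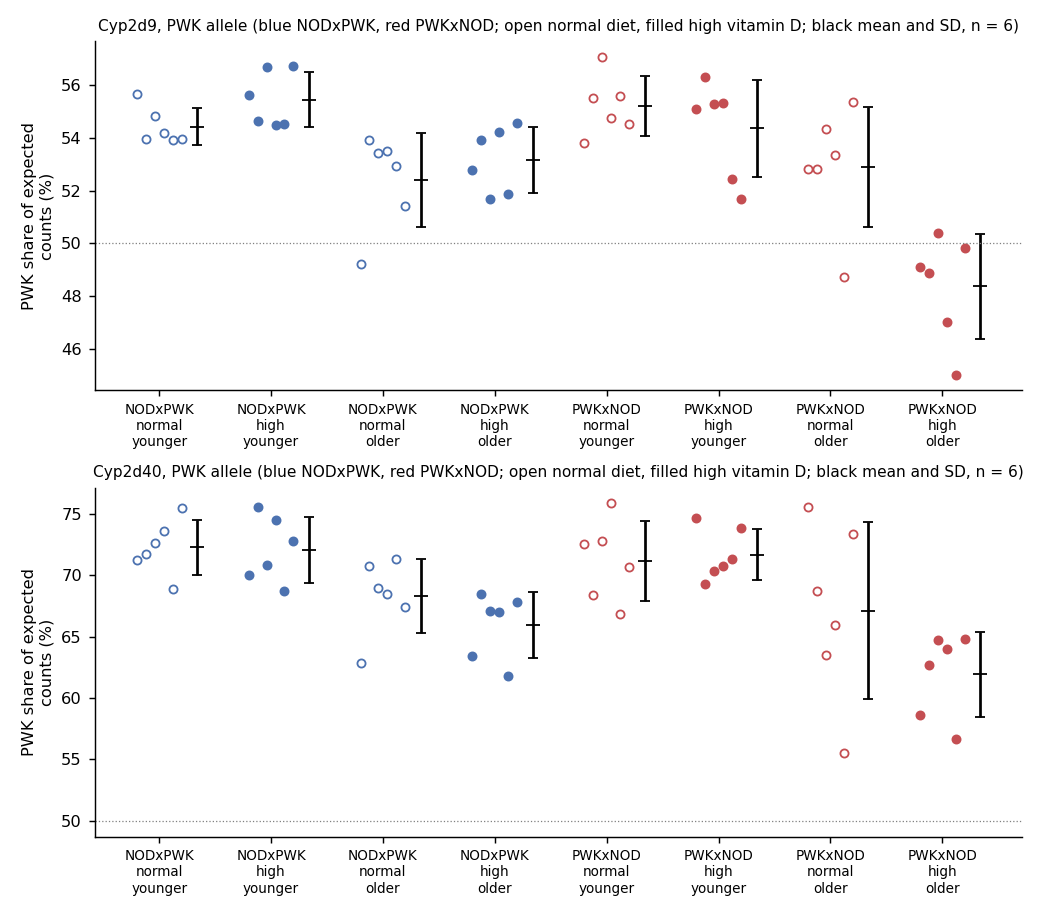
PWK share in percent of Cyp2d9 (top) and Cyp2d40 (bottom) in each mouse by group (x axis), with the mean and SD of 6 mice beside the points and a dotted line at 50%. The older groups lie lower in both crosses and on both diets, with the lowest mean of each gene in older PWKxNOD mice on the high diet.

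The allele levels behind these shares were compared by age after the shares had been seen. The PWK allele of Cyp2d9 averaged 1257 CPM in younger and 1105 CPM in older mice (-0.20 ± 0.05 log2, SE; permutation test within cross and diet, adjusted p = 0.00156 over 4 tests). The NOD allele averaged 1034 and 1025 CPM (-0.01 ± 0.05, permutation, adjusted p = 0.760). For Cyp2d40 the PWK allele averaged 147 CPM in younger and 131 CPM in older mice (-0.17 ± 0.05, permutation, adjusted p = 0.00818). Its NOD allele averaged 58.5 and 69.6 CPM (0.23 ± 0.10, permutation, adjusted p = 0.0337). The alleles of Cyp2d40 thus moved in opposite directions while the total was level (-0.02 ± 0.06, edgeR, adjusted p = 0.928). For each of its alleles the ranges of younger and older mice overlapped in all 4 matched pairs. Both genes were picked by their shifted ratio in the same counts, so these tests are no separate support for the shift.

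Within groups, most pairs of Cyp2d genes varied together from mouse to mouse. Cyp2d9 also varied with genes outside both subfamilies, with a 95th percentile of r of 0.65 over 10338 of them. After subtraction of group means, Cyp2d9 had r = 0.89 with Cyp2d10, 0.83 with Cyp2d26 and 0.77 with Cyp2d22 (rho = 0.88, 0.81 and 0.65; permutation within groups, adjusted p = 0.000108 for each r), and 0.86, 0.80 and 0.67 without the 2 farthest mice. Cyp2d9 and Cyp2d40 had r = 0.45 (rho = 0.51, permutation, adjusted p = 0.0301), and Cyp2d22 and Cyp2d40 r = 0.24 (rho = 0.31, permutation, adjusted p = 0.383). These values share a mouse, a library and, for some pairs, reads. Cyp2a4 and Cyp2a5, the pair with the most similar coding sequence, had r = 0.14 (rho = 0.10, permutation, adjusted p = 0.780). Cyp2a4 and Cyp2a12 had r = -0.48 (rho = -0.45, permutation, adjusted p = 0.045), and -0.38 without the 2 farthest mice. No member's level was related to the total count of the mouse at an adjusted p under 0.05.

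The genes that varied most alike with a member within groups were sought among 10338 genes. Pearson's r of log2 CPM was taken over the 48 mice after subtraction of group means, so group differences play no part. The genes found differed between the members. For Cyp2a4 they were the retinol dehydrogenase Rdh16 (r = 0.82), Dlat of the pyruvate dehydrogenase complex (0.78), the sulfide oxidase Sqor (0.78), Ebpl (0.76) and the corticosteroid-binding globulin Serpina6 (0.74), where 0.41 was the 95th percentile of all genes. For Cyp2a5 they were the amino acid transporters Slc7a2 (0.71) and Slc1a2 (0.70), Cyp2e1 (0.69), the clock gene Ciart (0.69) and the bilirubin glucuronide exporter Abcc2 (0.66), with a 95th percentile of 0.27. For Cyp2d9 they were Slc22a18 and Vwce (both 0.85) and Dgcr2, Rack1 and Got2 (each 0.84), with a 95th percentile of 0.65.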

How the data were processed

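Liver RNA of 48 mice was read as unstranded 68-base single-end libraries on 2 flowcells, per the labels' protocols. The values are expected counts per gene and allele, deposited by the authors as EMASE output with 1 column per mouse. The submitters' processing notes name CASAVA 1.7.0, Bowtie 1.1.2, GRCm38 and mm10, with no roles. The sources used here do not give the EMASE version, the annotation, any filter or how the 2 runs of a mouse were joined. Of 38924 genes, 37607 were matched by Ensembl identifier to GENCODE M21, and the others held 0.159% of the counts.

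NOD and PWK expected counts were summed and rounded for the total. edgeR 4.0.16 in R 4.3.3 (filterByExpr, 11979 genes, TMM, 8 group means, robust quasi-likelihood test, two-sided) was fitted to all genes, with Benjamini-Hochberg adjustment over all genes tested and a threshold of 0.05. Its biological coefficient of variation was 16.6%. Allele ratios were fitted with the alleles as 2 columns of the same mouse on 9362 autosomal genes with a mean of at least 20 counts. CPM values on the log2 scale had a pseudocount of 0.5. By permutation (100000 resamples), ratios and allele levels were tested for 1 factor within the strata of the other 2, and correlations within the 8 groups. The tests were tested on simulated data. Totals per mouse of 2.03 to 7.48 M set the precision.

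All members are named, and other genes come from lists of the same biology. Some genes of these lists are not reported here. Genes of similar pattern are the 5 with the highest correlation of deviations from the group means for Cyp2a4, Cyp2a5 and Cyp2d9. The members, lists and tests were chosen with earlier results of these data known. Upstream sequences are RefSeq's (GRCm38.p6) and coding sequences GENCODE's (M21). The results were recomputed with DESeq2 1.42.0, other filters, RLE scaling, counts not rounded, limma 3.58.1 on allele ratios, each allele scaled to its total, near-identical genes summed, a clock score as covariate, the lane set as a block, and mice left out.

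Each lane set (replicate number) held 1 mouse of every group. The labels thus give the pairing, although the mean correlation of deviations from the group mean was -0.00503 over the 168 pairs of a lane set and 0.00117 over other pairs. Chi-square per gene was 4.59 to 57.4 for the 120 pairs of one group, above sampling noise in each.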

Additional observations from a re-analysis of the deposited data

Results flagged for a closer look

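Of 136 sets of 6 mice of a group examined for levels and PWK shares of the members, 11 held a mouse that stood apart from the others (Dixon's criterion), where chance gives about 6.8. For Cyp2a4, replicate 2 of the older NODxPWK mice on the high diet had 155 CPM against 65.1 to 81.6 CPM in the others. For Cyp2a5, replicate 4 of the younger NODxPWK mice on the high diet had 340 CPM against 155 to 175 CPM. Replicate 2 of the older PWKxNOD mice on the high diet was low for Cyp2d9 (1326 CPM against 1859 to 2098) and for Cyp2d10 (561 CPM against 802 to 876). Replicate 4 of the older NODxPWK mice on the high diet was high for Cyp2d10 (962 CPM against 844 to 880). Replicate 5 of the older PWKxNOD mice on the normal diet was low for Cyp2d22 (170 CPM against 218 to 242) and high for Cyp2d40 (272 CPM against 176 to 207).

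The other 4 sets concern the PWK share of Cyp2a4, where most mice were at 100%. Replicate 2 of the older NODxPWK mice on the high diet had 97.9% and replicate 4 of those on the normal diet 99.1%, with all others at 100%. In PWKxNOD, replicate 2 of the younger mice on the high diet had 98.1% against 99.4% to 100%, and replicate 1 of the older mice on the normal diet had 95.8% against 98.4% to 100%.

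The ratio of PWK to NOD counts differed between the ages, by an interaction test, for Cyp2d40 (-0.40 log2) and for Cyp2d9 (-0.18 log2).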

How the results depend on the processing

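With the clock score as a covariate, 2 members passed for age, Cyp2a4 and Cyp2a12 (0.23, adjusted p = 0.0351, edgeR), and 0 for cross, and the cross difference of Cyp2a5 went from 0.84 to 0.03. The group means of the score did not overlap between the crosses, so score and cross cannot be told apart in this fit. With Cyp2a4 and Cyp2a5 summed, the age difference of their sum was -0.43, opposite in sign to Cyp2a5 alone. With 5 Cyp2d genes summed, the allele difference was -0.044, opposite to Cyp2d9 alone. With each allele scaled to its own total, Cyp2d26 was at -0.041 (adjusted p = 0.158, edgeR). Without the 7 mice labelled 25, which leaves 1 older NODxPWK mouse on the normal diet, 2 members passed for cross, Cyp2a5 (0.99) and Cyp2d40 (0.27, adjusted p = 0.0208, edgeR), and the diet difference of the Cyp2a4 to Cyp2a5 ratio was -0.85 (permutation, adjusted p = 0.0124) against -0.45 with all mice (adjusted p = 0.0994). With each lane set left out in turn, 1 to 2 members passed for cross, with Cyp2a4 (0.61) added without replicate 2 and Cyp2a12 (0.19) without replicate 3. For diet in older mice 0 to 1 passed, with Cyp2a12 (0.34) added without replicate 5. The age difference of Cyp2a4 ran from -1.31 to -1.14 over the alternatives that kept it as a row of its own and passed in each, and the allele-by-age differences of Cyp2d9 and Cyp2d40 passed in each, from -0.20 to -0.17 and from -0.43 to -0.38. With the lane set as a replicate block, the values were -1.25 for Cyp2a4 with age and 0.83 for Cyp2a5 with cross, and no member's call changed. Over all genes, 777 rather than 1439 passed for age and 5 rather than 445 for diet in older mice without the mice labelled 25. Depth limits Cyp2a22, with 12.7 counts per mouse, Cyp2d12, with 7.75, and the NOD allele of Cyp2a4, whose counts were 0 in 28 mice.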
